A study of Mus musculus with 4 samples.

Results

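MiRNAs enriched in neurons and brain were followed in exosomes released by BV2 cells, an immortalized mouse microglial line, by small RNA sequencing. The list was given by name and held 9 mouse miRNAs: mmu-miR-9-5p, mmu-miR-9-3p, mmu-miR-124-3p, mmu-miR-128-3p, mmu-miR-132-3p, mmu-miR-138-5p, mmu-miR-7a-5p, mmu-miR-184-3p and mmu-miR-218-5p. The species prefix is mostly left out below. Of these, 7 had a row among the 603 miRNA names of the files, and miR-124-3p and miR-138-5p were not analysed here. The control group held 2 libraries from wild-type BV2 cells kept at 37 °C for 2 h. The heatstroke (HS) group held 2 libraries from wild-type BV2 cells heated at 42 °C for 2 h, with 12 h at 37 °C afterwards by the methods and the sample labels, although another passage of the paper gives a shorter interval. BV2 is 1 line, and nothing in the labels says whether the libraries of a group came from separate cultures, so the p-values below measure the spread between these libraries only.

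A miRNA is cut from the arms of a hairpin precursor, and the mature strand guides Argonaute proteins to mRNAs that pair with its seed, bases 2 to 8. Neurons hold a characteristic set of miRNAs that act on the choice between progenitor and neuron, on the growth of dendrites and synapses, and on excitability. Microglia are the resident macrophages of the brain and are not the main source of this set. Exosomes are vesicles that cells release and that can carry miRNAs to other cells, which is why the study sequenced them.

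The mature sequences of the 7 miRNAs are shown 5′ to 3′ as RefSeq gives them on GRCm38.p6, with the seed in capitals, because the seed decides which miRNAs can share targets.
miR-128-3p: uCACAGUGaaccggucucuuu
miR-7a-5p: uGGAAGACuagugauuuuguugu
miR-9-5p: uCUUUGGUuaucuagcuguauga
miR-9-3p: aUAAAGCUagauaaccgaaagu
miR-132-3p: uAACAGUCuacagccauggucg
miR-218-5p: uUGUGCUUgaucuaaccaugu
miR-184-3p: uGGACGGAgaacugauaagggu
The 7 seeds all differed from each other. Among the 497 of the 603 listed names that had a RefSeq sequence, 5 of the 7 seeds had no second name. The seed of miR-132-3p was shared with miR-212-3p, and that of miR-7a-5p with miR-7b-5p. These relatives are shown with miR-27a-3p and miR-27b-3p, which hold the miR-128-3p seed CACAGUG shifted by 1 base, from base 3 instead of base 2.
miR-212-3p: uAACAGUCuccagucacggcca
miR-7b-5p: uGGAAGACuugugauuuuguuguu
miR-27a-3p: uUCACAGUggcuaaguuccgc
miR-27b-3p: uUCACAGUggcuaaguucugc
Counted from the 5′ end, miR-7b-5p differs from miR-7a-5p within the first 23 bases by A10U alone, and miR-27b-3p differs from miR-27a-3p by C19U alone. The 7 miRNAs were 21 to 23 bases long, so their read counts were compared without a length correction. Their GC content ran from 31.8% in miR-9-3p to 50% in miR-132-3p and miR-184-3p, with a median of 38.1% against 50% over the 497 sequences. The letters GGAG, a motif bound by the exosome-sorting protein hnRNPA2B1, were searched on the mature strand only. They occurred in miR-184-3p alone of the 7 and in 12.9% of the 497 sequences.

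Several of these miRNAs come from more than 1 locus, and reads of a mature sequence cannot be assigned among its loci. Both miR-9 arms lie on 3 hairpins of GRCm38.p6, all on the plus strand. The 5p arm is at chr3:88215613-88215635 within an intron of the long noncoding RNA gene Gm3764, at chr7:79505279-79505301 within an intron of Mir9-3hg, and at chr13:83738821-83738843 within an exon of C130071C03Rik by GENCODE M21. The shortest of the 3 annotated hairpins, Mir9-2 at chr13:83738814-83738885, is shown because it holds both members, with the 5p arm and then the 3p arm in capitals.
Mir9-2: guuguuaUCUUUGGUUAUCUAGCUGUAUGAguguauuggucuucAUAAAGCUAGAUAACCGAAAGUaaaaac
MiR-128-3p lies within introns of the protein-coding genes R3hdm1 (chr1:128202404-128202424, plus strand) and Arpp21 (chr9:112118644-112118664, minus strand). MiR-218-5p lies within introns of Slit2 (chr5:48223966-48223986, plus strand) and Slit3 (chr11:35616840-35616860, plus strand), which encode axon guidance ligands. MiR-7a-5p lies within an intron of Hnrnpk (chr13:58392841-58392863, minus strand) and, at chr7:78888295-78888317 on the plus strand, between annotated genes. MiR-132-3p is at chr11:75173723-75173744 (plus strand), inside an intron of the noncoding gene 1700016P03Rik, and the miR-212 and miR-132 arms together span 342 bases there. MiR-184-3p has 1 locus, chr9:89802263-89802284 on the minus strand, between annotated genes.

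The deposited values are read counts divided by 1 size factor per library, here called normalized counts. The reads on listed miRNAs numbered from 42091 in HS replicate 1 to 121503 in control replicate 2, and HS replicate 1 detected 228 names against 420 to 444 in the other libraries. The 376 tested miRNAs had a total of 10 reads or more, and 44.4% of them had 0 reads in HS replicate 1. A miRNA with 0 reads could still hold up to 3 reads, which corresponds to 7.25 normalized counts for HS replicate 1 but 1.99 for HS replicate 2. Such limits and all intervals on shares cover counting error only. Pairs of values are given for replicate 1 and then replicate 2, as "in controls" and "under HS".

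The 7 miRNAs together took 2980 and 5053 reads in controls, and 1709 and 3608 under HS. These were 3.09% and 4.16% of the listed reads in controls and 4.06% and 3.17% under HS, so the ranges of the groups overlapped. MiR-128-3p alone made up 84.8% to 90.3% of the reads of the 7, and miR-7a-5p made up 8.27% to 9.26%. The other 5 miRNAs took 5.77% and 6.89% of these reads in controls, and 1.11% and 5.35% under HS. Both control libraries had reads of all 7, HS replicate 1 of 4 and HS replicate 2 of 6. The 3 of 7 with 0 reads in HS replicate 1 were near the share over all 376 tested miRNAs, 44.4%. Of the 603 listed names, 439 and 444 had reads in controls, and 228 and 420 under HS.

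**Figure D1:**
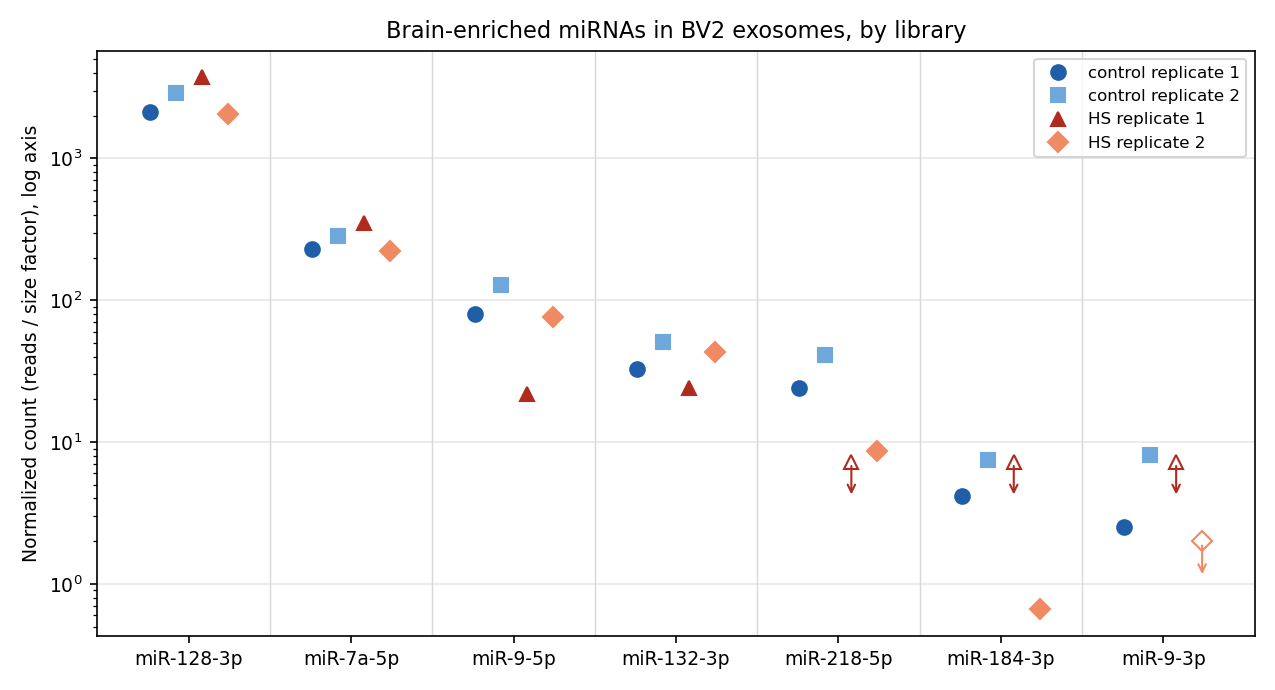
Normalized count (reads divided by the size factor, log axis) of each brain-enriched miRNA in the 2 control and 2 HS libraries, 1 point a library, ordered by summed reads. Open symbols with arrows mark 0 reads, drawn at the limit of 3 reads; the HS points of miR-128-3p and miR-7a-5p lie around the control points, whereas those of miR-9-5p and miR-218-5p lie below both of them.

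mmu-miR-128-3p, which restrains the excitability of neurons, was by far the most abundant of the 7. It had 2535 and 4287 reads in controls, and 1544 and 3081 under HS. In normalized counts these were 2119 and 2906 in controls and 3734 and 2044 under HS. HS replicate 1 was the highest of the 4 libraries and HS replicate 2 the lowest, so the control values lay between them. It ranked 10 and 6 of the names read in controls, and 7 and 8 under HS. Its share of the listed reads was 2.63% (95% Wilson interval 2.53% to 2.73%) and 3.53% (3.43% to 3.63%) in controls, and 3.67% (3.49% to 3.85%) and 2.70% (2.61% to 2.80%) under HS. The group means were 2512 ± 556 (SD, n = 2) normalized counts in controls and 2889 ± 1194 (SD, n = 2) under HS. The fitted log2 fold change was 0.15 (limma, standard error 0.78, Benjamini-Hochberg adjusted p = 0.943), with a 95% confidence interval from -1.96 to 2.27. Changes inside this interval could not be told from none with 2 libraries a group, and the sign turned without HS replicate 1 (-0.28) and without control replicate 1 (-0.073).

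mmu-miR-7a-5p, an islet and hypothalamic miRNA that represses alpha-synuclein, came next with 273 and 418 reads in controls and 146 and 334 reads under HS. Its normalized counts were 228 and 283 in controls and 353 and 222 under HS. The libraries stood in the same order as for miR-128-3p, with HS replicate 1 highest and HS replicate 2 lowest. HS over control gave a log2 fold change of 0.14 (standard error 0.75, limma adjusted p = 0.948), with a 95% confidence interval from -1.90 to 2.17. The sign turned without HS replicate 1 (-0.20) and without control replicate 1 (-0.018). The near-identical miR-7b-5p had 1 read in each control library and 0 in each HS library, so that at least 99.6% of the reads with this seed were those of miR-7a-5p in every library.

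A ratio of 2 miRNAs within a library does not depend on any scaling between libraries. Per 1000 reads of miR-128-3p there were 108 and 97.5 reads of miR-7a-5p in controls, and 94.6 and 108 under HS, a 1.15-fold range over all 4 libraries. On this measure miR-9-5p had 37.9 and 44.1 reads in controls, and 5.83 and 37.0 under HS. The 2 most abundant members thus kept near the same proportion in every library, and miR-9-5p had the control proportion in HS replicate 2 but not in HS replicate 1.

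**Figure D2:**
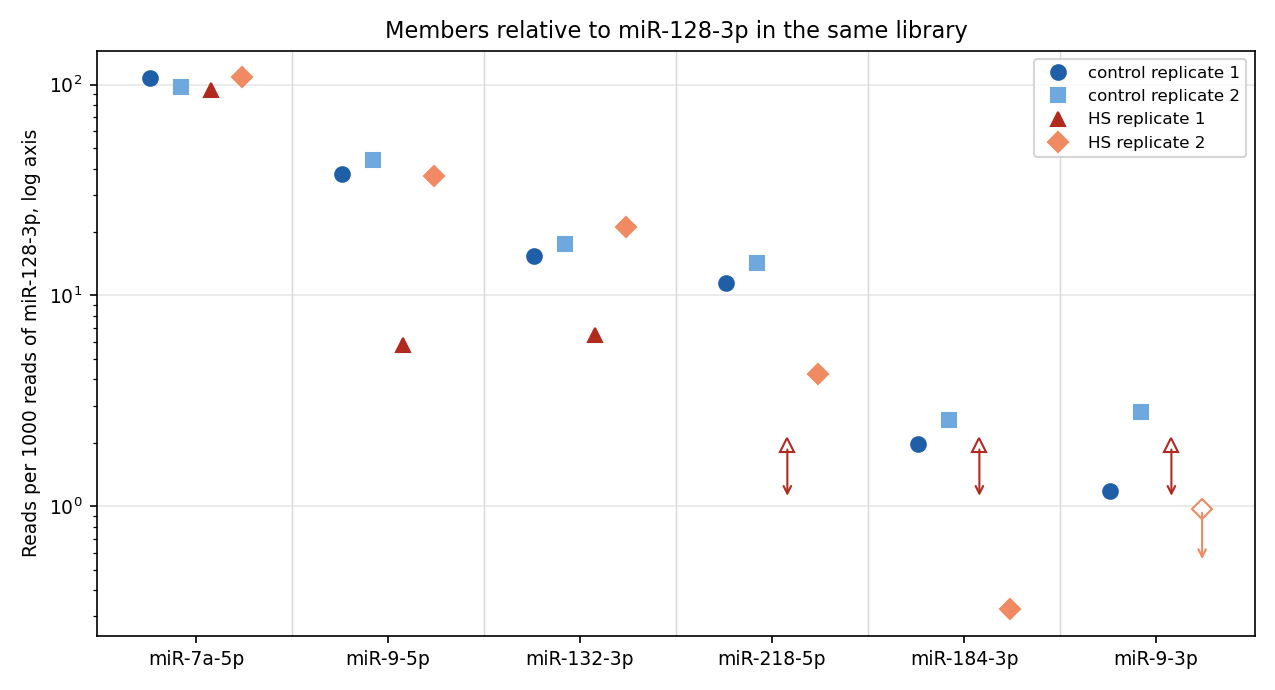
Reads of the other 6 miRNAs per 1000 reads of miR-128-3p in the same library (log axis), 1 point a library, with open symbols at the limit of 3 reads where a library had 0. MiR-7a-5p lies between 94.6 and 108 in all 4 libraries, and HS replicate 1 is the lowest library for miR-9-5p and miR-132-3p. MiR-218-5p lies below both control libraries in HS replicate 2 as well as at the limit of HS replicate 1.

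The 2 miR-27 miRNAs hold the miR-128-3p seed shifted by 1 base. MiR-27b-3p had 1576 and 1558 normalized counts in controls and 941 and 938 under HS, and miR-27a-3p had 628 and 767 against 348 and 552. Both HS values lay below both control values for each of them, as they did for 32.4% of all tested miRNAs. The log2 fold changes were -0.74 (adjusted p = 0.674) and -0.66 (adjusted p = 0.729) in limma. The reads of miR-128-3p were 0.961 and 1.25 times those of miR-27a-3p and miR-27b-3p together in controls, and 2.90 and 1.37 times under HS. The HS ratios lay above the control ratios, but with 2 libraries against 2 the smallest p that a two-sided exact permutation test can give is 0.333.

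mmu-miR-9-5p, which acts in neural progenitors and represses the neuronal gene silencer Rest, had 96 and 189 reads in controls and 9 and 114 reads under HS. Its normalized counts were 80.2 and 128 in controls and 21.8 and 75.6 under HS. Both HS values were below both control values, although HS replicate 2 lay close to control replicate 1 and HS replicate 1 was 3.48-fold under HS replicate 2. HS replicate 1 held 9 reads, where the level of HS replicate 2 corresponds to 31.3. The control mean of 104 ± 33.8 (SD, n = 2) normalized counts was 2.14-fold the HS mean of 48.7 ± 38.1 (SD, n = 2). This ratio was 1.38 without HS replicate 1 and 4.79 without HS replicate 2. On the log2 scale the difference was -1.29 (standard error 0.95, limma adjusted p = 0.621) and stayed within the spread between libraries. Without HS replicate 1 it was -0.42.

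mmu-miR-9-3p, the strand cut from the other arm of the same hairpins, which represses the Rest partner CoREST, had 3 and 12 reads in controls and 0 in both HS libraries. These were 2.51 and 8.13 normalized counts in controls. The limit of 7.25 normalized counts in HS replicate 1 lies above the value of control replicate 1, because the control mean corresponds to 2.20 reads there, against 8.02 in the deeper HS replicate 2. Set against the limits of the HS libraries, the control mean was at least 1.15-fold higher. The bound was 1.76-fold without control replicate 1 and 2.67-fold without HS replicate 1, and no bound could be given without control replicate 2 or without HS replicate 2. The log2 fold change of -2.50 (standard error 0.85, unadjusted p = 0.0388, limma adjusted p = 0.540) met the study's criterion of over 2-fold and p under 0.05, with p taken here as unadjusted, but failed the correction. It no longer met the criterion without either HS library, and in edgeR's quasi-likelihood test and DESeq2's Wald test, both run on whole reads.

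The 3p arm held 3.03% (95% Wilson interval 1.04% to 8.53%) and 5.97% (3.45% to 10.1%) of the miR-9 reads in controls. In HS replicate 2 it held 0 of 114 reads, which allows a share of up to 2.63%, and in HS replicate 1 the 9 reads allow a share of up to 33.3%. The share in HS replicate 2 was thus under that of the control libraries, although its Wilson interval (0% to 3.26%) overlaps that of control replicate 1. Over the 4 libraries the 5p arm had 27.2 times the reads of the 3p arm.

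mmu-miR-132-3p, a miRNA induced by neuronal activity through CREB that favours dendrite growth, had 39 and 75 reads in controls and 10 and 65 reads under HS. Its normalized counts were 32.6 and 50.8 in controls and 24.2 and 43.1 under HS. The groups overlapped, with HS replicate 2 between the control libraries and HS replicate 1 the lowest. The fit gave a log2 fold change of -0.32 (standard error 0.79, limma adjusted p = 0.876), with a 95% confidence interval from -2.46 to 1.81, and its sign turned without HS replicate 1 (0.081).

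The other products of the shared miR-212 and miR-132 locus were read at lower levels. MiR-132-5p had 6 and 17 reads in controls and 0 and 11 under HS, or 13.3% and 18.5% of the miR-132 reads in controls and 14.5% in HS replicate 2. MiR-212-3p, which shares the miR-132-3p seed, had 3 and 6 reads in controls and 0 and 9 under HS. MiR-212-5p had 10 and 41 reads in controls and 13 and 5 under HS, and was thus the only product of the locus whose normalized count was highest in HS replicate 1 (31.4, against 3.32 in HS replicate 2). None of these 3 met the criterion, and their adjusted p-values in limma were 0.621, 0.824 and 0.890.

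mmu-miR-218-5p, a motor neuron miRNA, had 29 and 61 reads in controls and 0 and 13 reads under HS. Its normalized counts were 24.2 and 41.3 in controls, at most 7.25 in HS replicate 1 by the limit of 3 reads, and 8.63 in HS replicate 2. The groups did not overlap even with HS replicate 1 at its limit. The control mean corresponds to 13.6 reads at the depth of HS replicate 1 and to 49.4 at that of HS replicate 2. The control mean of 32.8 ± 12.1 (SD, n = 2) normalized counts was 4.13-fold above the HS mean with the limit in place of 0, 3.80-fold without HS replicate 1 and at least 4.52-fold without HS replicate 2. HS over control came to a log2 fold change of -3.40 (standard error 1.34, unadjusted p = 0.0604, limma adjusted p = 0.585), the 16th lowest of the 376 tested. It did not meet the criterion. Without HS replicate 1 it was -1.76, and without HS replicate 2 it was -5.03 and met the criterion.

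mmu-miR-184-3p, a miRNA of cornea and lens that also acts in neural stem cells, had 5 and 11 reads in controls and 0 and 1 reads under HS. Its normalized counts were 4.18 and 7.46 in controls, with 0.664 in HS replicate 2. The limit of HS replicate 1, 7.25 normalized counts, falls between the control values, and the control mean corresponds to 2.41 reads at its depth. At the depth of HS replicate 2 it corresponds to 8.77 reads. The 16 control reads against 1 HS read gave an 11.5-fold ratio of reads per size factor, with an exact 95% interval from 1.79 to 482 for counting error. The ratio was 9.03 without HS replicate 1. It was 8.03 without control replicate 2, where the interval ran from 0.898. HS replicate 2 held the only HS read, and a ratio could not be had when it was left out. With the limit in place of 0 in HS replicate 1, the control mean was only 1.47-fold above the HS mean, and 1.06-fold without control replicate 2. The log2 fold change of -2.36 (standard error 0.79, unadjusted p = 0.0368, limma adjusted p = 0.533) met the criterion and failed the correction. It no longer met the criterion without HS replicate 1 or without either control library, nor in the edgeR and DESeq2 tests.

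Of the 7 miRNAs, 2 met the study's criterion, miR-9-3p and miR-184-3p, both lower under HS and both with 17 reads or fewer over the 4 libraries. These 2 reached the minimum of 10 summed reads through their control reads, 15 and 16, with 0 and 1 reads under HS. At control levels as low as their HS levels they would not have been tested, so their direction is not independent of this minimum. Both also met the criterion with no read minimum. The 2 of 7 were not tested against the share of all tested miRNAs. Over all tested miRNAs the criterion was met by 8.24%, with 6.65% lower and 1.60% higher under HS. No tested miRNA had an adjusted p under 0.05 in limma (0 of 376, with 31 at an unadjusted p under 0.05), nor in the edgeR or DESeq2 test (0 each). Both HS libraries lay below both control libraries for 4 of the 7 (miR-9-5p, miR-9-3p, miR-218-5p and miR-184-3p), against 32.4% of all tested miRNAs. The log2 fold change was below 0 for 5 of the 7, against 65.4% of all tested. The median log2 fold change was -1.29 for the 7 and -0.65 for all 376, and the latter was -0.17 without HS replicate 1 and -1.38 without HS replicate 2. Whether a miRNA was read less because fewer vesicles held it or because each held fewer copies cannot be told apart in these values.

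**Figure D3:**
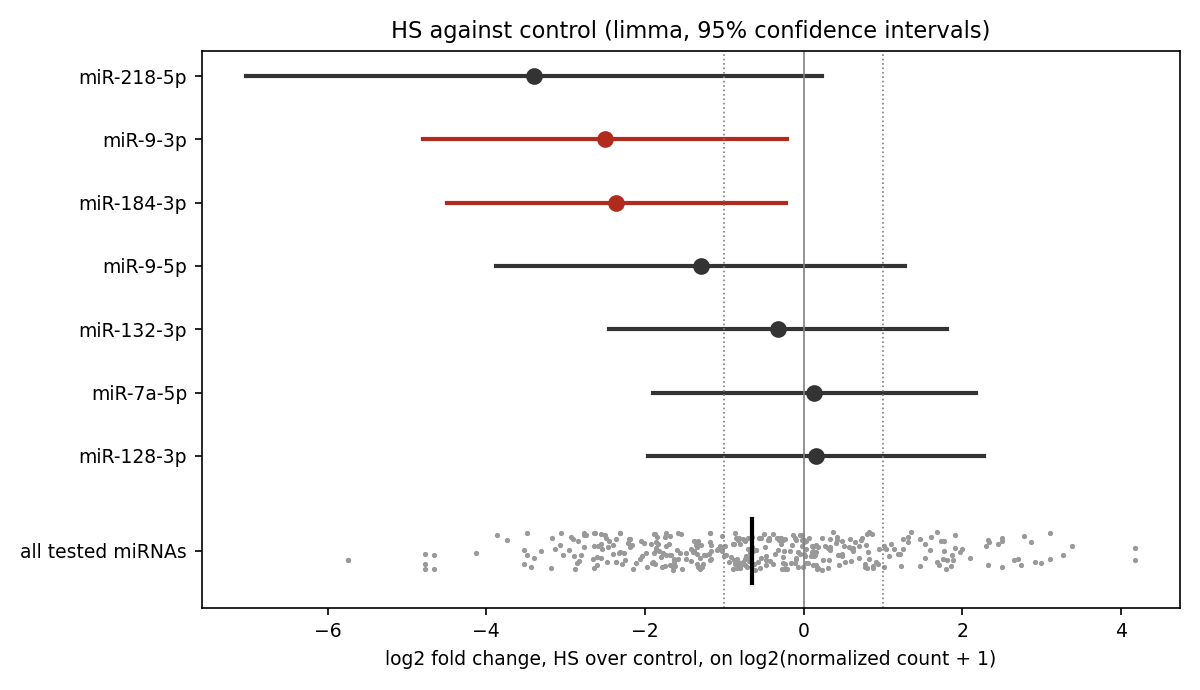
Log2 fold change of HS over control on log2(normalized count + 1) with 95% confidence intervals from limma for the 7 brain-enriched miRNAs, and, as grey points below, the fold changes of all 376 tested miRNAs with their median as a black bar. Red marks miR-9-3p and miR-184-3p, which met the study's criterion; dotted lines mark 2-fold, and the other 5 intervals include 0.

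The order of levels in controls was miR-128-3p, miR-7a-5p, miR-9-5p, miR-132-3p, miR-218-5p, miR-184-3p and miR-9-3p. The ranges of the control libraries overlapped for miR-132-3p and miR-218-5p, and for miR-184-3p and miR-9-3p. MiR-132-3p was nonetheless above miR-218-5p in each of the 4 libraries, whereas miR-184-3p was above miR-9-3p in control replicate 1 and below it in control replicate 2. The other neighbours did not overlap. In HS replicate 2 the first 5 stood in the same order as in controls, and the last 2, with 1 and 0 reads, could not be ranked. In HS replicate 1 miR-9-5p, with 9 reads, stood beside miR-132-3p, with 10.

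The tested miRNAs whose 4 values had the most similar profile, each centred on its own mean on the log2 scale, differed between the members. The nearest of miR-128-3p was miR-30a-3p (distance 0.17), with 172 and 322 reads in controls and 99 and 202 under HS. MiR-451a, a red cell miRNA, was the second nearest of miR-128-3p (0.19) and the nearest of miR-7a-5p (0.14), with 45 and 73 reads in controls and 23 and 51 under HS. The nearest of miR-132-3p was miR-6238 (distance 0.086) and that of miR-9-5p was miR-542-3p (0.16), the latter with 3 and 6 reads in controls and 0 and 3 under HS. MiR-9-3p was nearest to miR-326-5p (0.32), miR-184-3p to miR-32-5p (0.44) and miR-218-5p to miR-493-5p (0.84). These are distances over 4 libraries, and among miRNAs of few reads they carry large counting error.

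Other miRNAs known from neurons held 0.953% and 1.26% of the listed reads in controls, and 1.85% and 1.41% under HS. Both HS shares of this sum lay above both control shares, as the normalized counts did for 12.5% of all tested miRNAs. Of 18 names, 10 had a row and 8 were tested, and 0 of the 8 met the criterion, against 8.24% of all tested. Their log2 fold changes ran from -1.27 to 0.79 with a median of -0.46, and 5 of the 8 were below 0, against 65.4% of all tested. MiR-129-5p made up most of the reads of the sum, with 538 and 771 normalized counts in controls and 1664 and 751 under HS (log2 fold change 0.79, limma adjusted p = 0.699). Its groups overlapped, with HS replicate 2 between the control libraries. As with miR-128-3p and miR-7a-5p, HS replicate 1 was its highest library. MiR-330-3p had 140 and 138 normalized counts in controls and 143 and 218 under HS. MiR-139-5p had 68.5 and 78.0 in controls and 45.9 and 62.4 under HS.

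The labelled cell type was checked with 7 miRNAs of myeloid cells, all of which had a row. MiR-146a-5p had 1218 and 1356 normalized counts in controls and 1289 and 1766 under HS, and miR-142a-5p, from the leukocyte hairpin miR-142, had 171 and 190 against 79.8 and 165. The other arm, miR-142a-3p, had only 17 and 3 reads in controls and 0 and 3 under HS (log2 fold change -1.97, limma adjusted p = 0.621). MiR-155-5p, induced in activated macrophages, had 147 and 127 normalized counts in controls and 62.9 and 123 under HS, and miR-342-3p had 42.6 and 20.3 against 26.6 and 41.1. MiR-223-3p, however, had at most 5 reads in any library. The myeloid list held 6.81% and 2.99% of the listed reads in controls and 1.71% and 3.85% under HS, and miR-21a-5p, which many cell types express, gave 4666 of the 6577 reads of control replicate 1.

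MiRNAs of other cell types were low in the same library, HS replicate 1, in which miR-9-5p and miR-218-5p were lowest. The 6 miRNAs of stroma and endothelium, among them miR-199a-3p and miR-126a-3p, held 4.08% and 1.71% of the listed reads in controls, and 0.0214% and 1.23% under HS. The 7 epithelial miRNAs held 0.476% and 0.230% in controls, and 0.00238% and 0.161% under HS. Of these 7, 6 had 0 reads in HS replicate 1, as did 2 of the 6 of stroma and endothelium. Over all tested miRNAs the share with 0 reads there was 44.4%. All 6 tested names of each list had a log2 fold change below 0, against 65.4% of all tested miRNAs. Of these names 0 met the criterion, against 8.24% of all tested. The 4 red cell and serum miRNAs together held 0.112% to 0.144% in all libraries, but they did not move alike. In HS replicate 1, miR-16-5p was at its lowest (14.5 normalized counts), whereas miR-451a and miR-486a-5p were at their highest (55.6 and 43.5). The part of these shifts in the values of the brain-enriched miRNAs was not tested. MiR-338-5p of oligodendrocytes, the only one of 4 such names with a row, had 21 and 25 reads in controls and 0 and 28 under HS, and miR-375-3p of endocrine cells had at most 5 in any library.

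**Figure D4:**
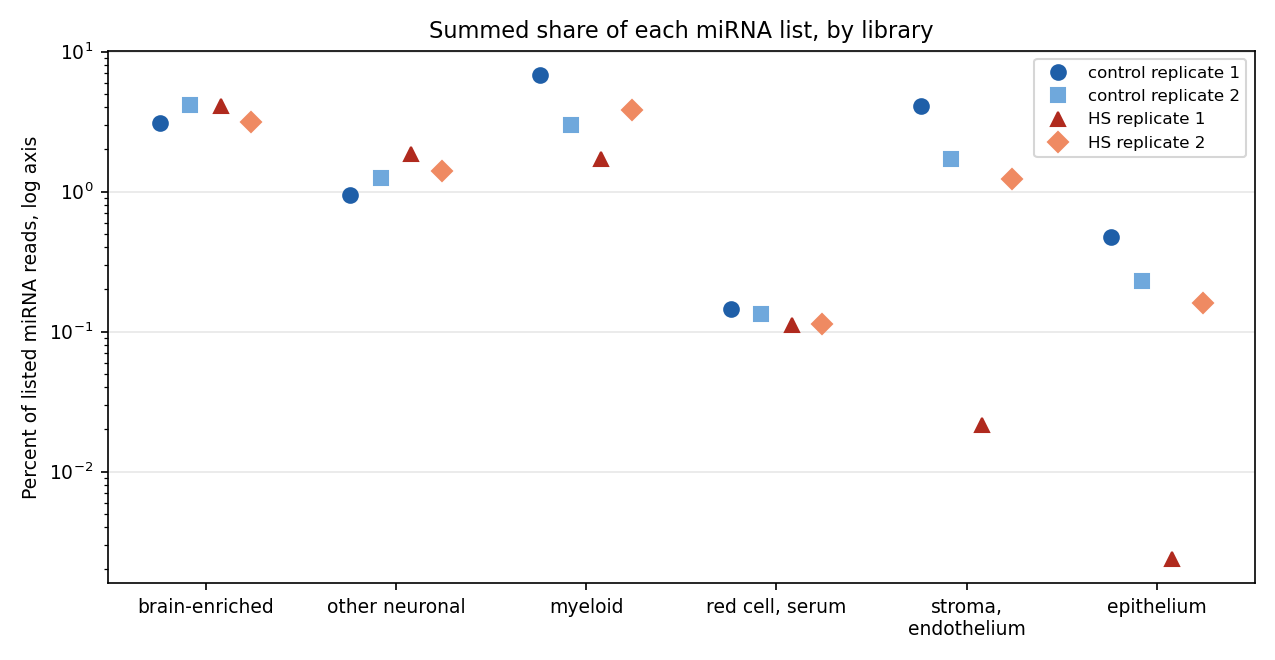
Percent of the listed miRNA reads (log axis) held by the 7 brain-enriched miRNAs and by 5 further lists, 1 point a library. These are other neuronal, myeloid, red cell and serum, stromal and endothelial, and epithelial miRNAs. HS replicate 1 is far below the other libraries for the stromal and epithelial lists (0.0214% and 0.00238%), and is also the lowest for the myeloid list (1.71%). The brain-enriched miRNAs lie between 3.09% and 4.16% in all 4 libraries, a sum of which miR-128-3p makes up 84.8% to 90.3%. The sum therefore does not show the 5 least abundant members, which took 1.11% of its reads in HS replicate 1 and 5.35% to 6.89% elsewhere.

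**Figure D5:**
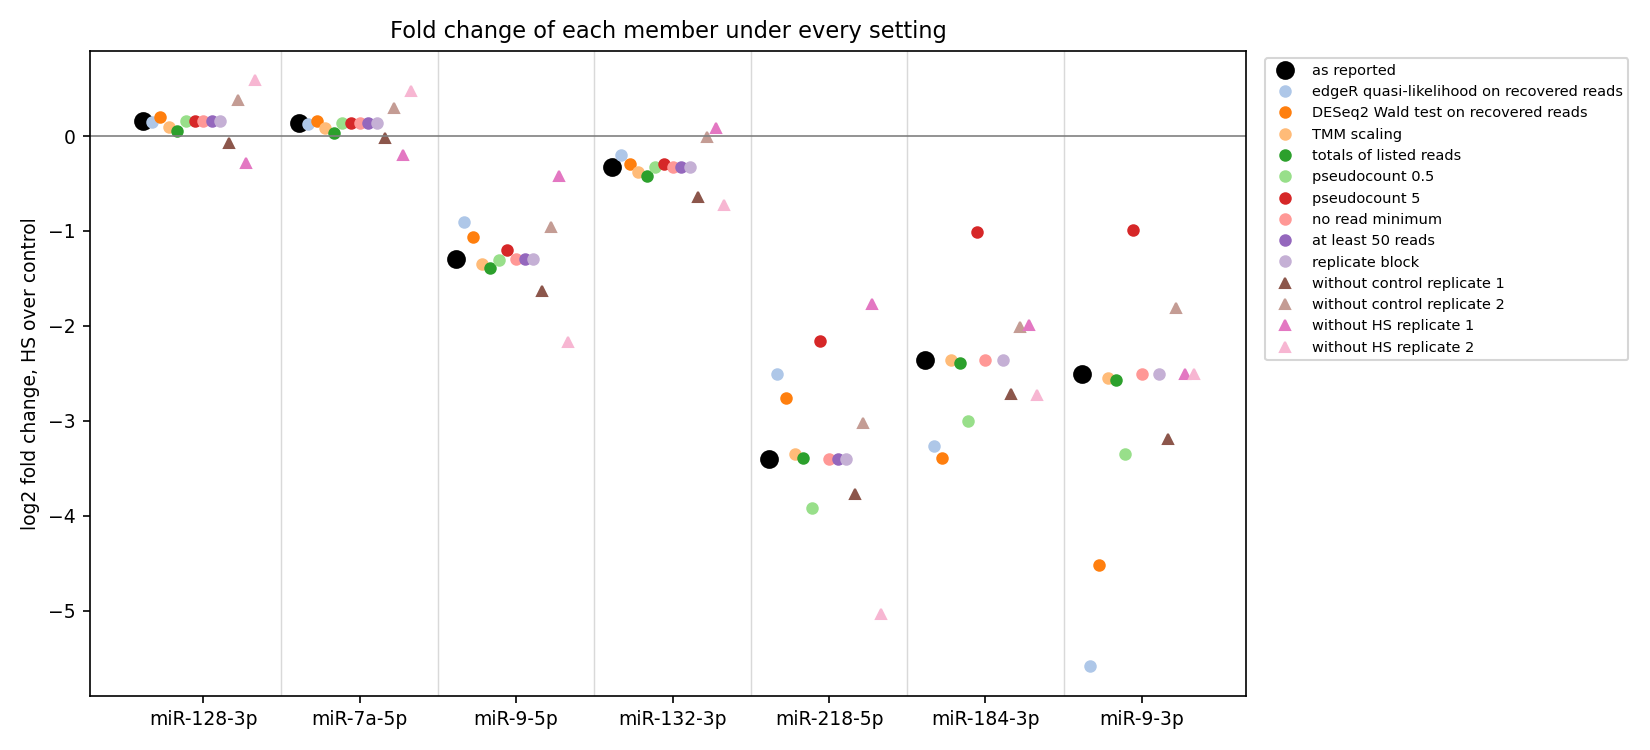
Log2 fold change of HS over control for each brain-enriched miRNA under the reported fit (black) and under every alternative, with circles for other tests, scalings, pseudocounts and filters and triangles for fits without 1 library. The values of miR-128-3p, miR-7a-5p and miR-132-3p lie on both sides of 0 when libraries are left out, whereas those of the other 4 miRNAs stay below 0 under every setting drawn.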

How the data were processed

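Small RNA from exosomes of control and HS BV2 cells had been sequenced, 2 libraries a group. According to its methods, the authors stripped adapters, dropped short and poor reads, aligned the others by bowtie and counted reads per miRNA. The genome build and miRNA release are not given in the sources used here. The signal values the authors deposited are headed RPKM. Divided by the smallest non-zero value of their library, 100% of the non-zero values came out as whole reads (within 0.001), and these recovered reads were used. The size factors, the inverse of the steps, were 1.20, 1.48, 0.414 and 1.51 for control replicates 1 and 2 and HS replicates 1 and 2.

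The comparison of HS with control used limma 3.58.1 (lmFit, eBayes; R 4.3.3) on log2(normalized count + 1), over all 376 miRNAs with at least 10 reads summed, without a replicate term. Fold changes on this scale depend on the pseudocount for miRNAs with few reads. They can understate a change where both groups are low, and can overstate the ratio of the group means where 1 library of a group has 0 reads. Adjustment of p-values followed Benjamini and Hochberg over all tested miRNAs. Alternatives were edgeR 4.0.16 and DESeq2 1.42.0 on recovered reads, other scalings, pseudocounts and read minimums, a replicate block, and fits without each library. The miRNAs, lists and rules were chosen with earlier results of these data known. Named are all 9 members, their relatives, the marker lists and, for each member, the 2 tested non-member miRNAs of smallest Euclidean distance.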

Additional observations from a re-analysis of the deposited data

How the results depend on the processing

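The number of tested miRNAs that met the study's criterion was 31. It was 16 with a pseudocount of 5, 8 of 209 with at least 50 reads, and from 26 to 113 with 1 library left out, the highest without HS replicate 2. Of the 7 brain-enriched miRNAs 2 met it, but 0 did with edgeR's quasi-likelihood test, 0 with DESeq2's Wald test, 0 with at least 50 reads (where miR-9-3p and miR-184-3p were not tested), 1 with TMM scaling (miR-9-3p), 1 with a pseudocount of 5 (miR-218-5p, which was not among the 2), 3 with no read minimum (the 2 and miR-218-5p), and 0 to 2 with 1 library left out. With the replicate number as a block, 19 of all tested miRNAs and 1 of the 7, miR-218-5p, met the criterion. The labels do not say whether same-numbered libraries share more than a number. The correlation of their deviations was -0.097 over 376 miRNAs. Adjusted p-values over all settings ran from 0.243 to 0.822 for miR-9-3p, from 0.154 to 0.935 for miR-184-3p and from 0.102 to 0.882 for miR-218-5p. No setting other than leaving out a library changed the sign of a member. With a library left out, log2 fold changes ran from -0.28 to 0.59 for miR-128-3p, from -0.20 to 0.47 for miR-7a-5p and from -0.73 to 0.081 for miR-132-3p. The cause was not tested. In a fit without 1 library, the lone library of that group was assumed to vary like the other group. The shallow HS replicate 1 limits what can be said of miR-9-3p and miR-184-3p, whose limit there reached the control levels.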
